A study of Mus musculus with 12 samples.

Results

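Immediate early genes are the genes that a cell switches on within minutes of stimulation, before any protein has to be made, and 36 of them were followed across the series: the listed members were matched by symbol to the 55421 genes of the count table. The list comprised 6 AP-1 transcription factors, 4 EGR and 3 NR4A factors, 10 other transcription factors and nuclear regulators, 8 genes of signalling feedback and 5 synaptic and other effectors. All 36 passed the filter on low counts and were among the 20015 genes tested. PolyA RNA-seq libraries came from prefrontal cortex of wild-type male C57BL/6 mice, 10 to 12 weeks old, that had all been fear conditioned with 3 pairings of a tone and a 0.7 mA foot shock. The mice then received dexmedetomidine (Dex), a sedative agonist of alpha2 adrenergic receptors, as an intraperitoneal injection (40 µg/kg, 10 ml/kg), or an equal volume of saline, and tissue was taken 2 h after training. The 4 groups held 3 libraries each: prelimbic cortex (PL) with Dex, PL with saline, infralimbic cortex (IL) with Dex and IL with saline. Every group was trained, so the levels below include any response to training, and the size of that response was not measured. The titles assign 6 libraries to IL although the extraction protocol speaks of prelimbic tissue for all 12, and the titles were followed. The labels name whole brain tissue of the stated region and no sorted cell type. Whether each library of a group is a different mouse is not stated, and the p-values therefore reflect only how far these libraries differ, which may be technical.

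In neurons, calcium entry and cyclic AMP activate kinases that phosphorylate CREB, SRF and its partners, and these factors, already bound at the promoters, start the transcription of immediate early genes. The first products are transcription factors such as Fos, Egr1 and Npas4, which act on later genes, together with synaptic proteins such as Arc and Homer1a, and with phosphatases and kinases that shut the signal down. Many of the transcripts decay quickly, so that RNA levels follow recent activity, and Fos and Arc are widely used as marks of activated neurons after learning. Dexmedetomidine acts on receptors that couple to inhibitory G proteins and lower cyclic AMP.

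The libraries held 5419187 to 16530596 counts, with the deepest in IL saline. Levels are given as CPM, the counts relative to the scaled size of the library. The median biological coefficient of variation, the spread between libraries beyond counting error, was 0.151 over the 36 genes and 0.159 over all genes tested. The first principal component (35.8% of the variance) placed all PL libraries on 1 side and all IL libraries on the other, and within PL it formed a pair of sets of 3, of which the 1 nearer to IL held libraries 1 and 2 of PL Dex with library 1 of PL saline. Summed markers of striatal neurons, which lie beneath the cortex, stood at 86.7 to 175 CPM in PL Dex, 83.4 to 257 CPM in PL saline, 431 to 663 CPM in IL Dex and 447 to 563 CPM in IL saline. Summed oligodendrocyte markers reached from 1650 to 4438 CPM within PL Dex, against 2298 to 3164 CPM in PL saline. Summed neuron markers were at 4720 to 6231 CPM in PL Dex, 5542 to 5882 CPM in PL saline, 3897 to 4263 CPM in IL Dex and 3690 to 4052 CPM in IL saline, and none of the markers used was at 0. Summed astrocyte markers were at 715 to 885 CPM in PL Dex and 759.6 to 919 CPM in PL saline, and summed microglia markers at 162 to 182 CPM in PL Dex and 149 to 169 CPM in PL saline. Log2 fold changes are given with their standard error (SE) and, where the result turns on them, a 95% confidence interval (CI). In bulk tissue, fewer cells of a type and less RNA per cell cannot be told apart.

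Per unit of transcript length, as TPM averaged over the 12 libraries, the most abundant of the genes was Egr1 at 238 ± 40.2 TPM (SD, n = 12). Homer1 (199 ± 39.2 TPM), Arc (176 ± 45.4 TPM) and Egr3 (169 ± 34.2 TPM) followed. Egr1 had more TPM than Homer1 in 10 of 12 libraries, whereas Homer1 was above Arc in 7 and Arc above Egr3 in 6, so the order among these 3 was not resolved. Egr3 was above Nr4a1 (102 ± 28.8 TPM) in all 12. Fos stood in the middle of the list at 53.8 ± 13.7 TPM and did not separate from Nr4a3, which was at 53.0 ± 9.21 TPM, Fos being the higher in 6 of 12 libraries. Klf4 (5.15 ± 1.2 TPM), Maff (3.21 ± 1.42 TPM) and Atf3 (1.84 ± 1.52 TPM) were the lowest. Atf3 had 0 to 24 counts per library and Maff 5 to 42, so their values carry the largest counting error. The Homer1 count sums the short activity-induced isoform and the long constitutive ones.

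Promoters are shown for 5 of the genes described below. They were picked by hand, without Csrnp1, whose Dex value in PL was among the highest. A link between motifs and Dex was not tested. RefSeq promoter sequences (GRCm38.p6) were at hand for 28 of the 36 genes, as 38 windows running from 250 bases before to 50 bases after a transcription start. Both strands were searched for 5 motifs: the full cyclic AMP response element TGACGTCA, which CREB binds, the AP-1 site TGANTCA, the EGR site GCGNGGGCG, the TATA box TATAAA, and the CArG box, which SRF binds. The full cyclic AMP response element lay in 4 of the 38 windows, of Arl4d, Btg2, Dusp1 and Maff, and in 1.79% of the 32851 mouse windows searched. The EGR site lay in 10 of the 38 windows (Btg2, Fosb, Fosl2, Gadd45b, Klf2, Klf4, Maff, Nr4a1, Nr4a2 and Rgs2) and in 5.55% of all windows. The CArG box was found in 5 of the 38 windows, of Dusp5 and of Egr2, whose windows partly overlap (1.63% of all windows). The TATA box was found in 5, of Fos, Gadd45b, Gadd45g, Junb and Nr4a2 (13.6%), with the match of Junb beginning at the start itself. The AP-1 site was found in 1, of Csrnp1 (7.81%). These are matches of letters, and a gene with no match only lacks those letters in its window. The 250 bases before the start are given 5′ to 3′ on the gene's strand, with matches in capitals. For Btg2 (chr1:134079156-134079405, minus strand) the capitals mark the cyclic AMP response element at −166 and the EGR site at −131 from the start. For Dusp1 (chr17:26508473-26508722, minus strand) they mark the cyclic AMP response element at −143, and for Arl4d (chr11:101665291-101665540, plus strand) the same element at −26. For Egr2, 1 of 5 overlapping or neighbouring windows is shown (chr10:67537619-67537868, plus strand), with a CArG box at −72. For Fos (chr12:85473640-85473889, plus strand) the capitals mark the TATA box at −33.
Btg2: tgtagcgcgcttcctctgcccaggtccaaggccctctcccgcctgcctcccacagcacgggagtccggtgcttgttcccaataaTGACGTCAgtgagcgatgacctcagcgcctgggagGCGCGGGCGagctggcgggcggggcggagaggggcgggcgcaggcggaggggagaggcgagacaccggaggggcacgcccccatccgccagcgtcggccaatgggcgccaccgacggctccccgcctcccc
Dusp1: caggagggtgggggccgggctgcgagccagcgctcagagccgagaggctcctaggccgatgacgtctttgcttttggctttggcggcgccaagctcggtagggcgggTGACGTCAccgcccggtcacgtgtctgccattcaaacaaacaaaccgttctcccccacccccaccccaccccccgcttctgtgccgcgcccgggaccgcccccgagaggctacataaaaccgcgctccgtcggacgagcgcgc
Arl4d: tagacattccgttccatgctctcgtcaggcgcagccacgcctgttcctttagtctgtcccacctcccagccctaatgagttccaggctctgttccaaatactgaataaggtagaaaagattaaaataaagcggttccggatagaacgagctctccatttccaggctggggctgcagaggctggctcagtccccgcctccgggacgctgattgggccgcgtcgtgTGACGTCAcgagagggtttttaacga
Egr2: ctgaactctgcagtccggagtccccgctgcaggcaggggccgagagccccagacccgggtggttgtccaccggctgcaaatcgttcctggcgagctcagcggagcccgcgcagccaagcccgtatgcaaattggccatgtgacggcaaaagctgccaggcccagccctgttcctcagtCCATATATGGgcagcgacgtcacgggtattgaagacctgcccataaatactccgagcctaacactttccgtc
Fos: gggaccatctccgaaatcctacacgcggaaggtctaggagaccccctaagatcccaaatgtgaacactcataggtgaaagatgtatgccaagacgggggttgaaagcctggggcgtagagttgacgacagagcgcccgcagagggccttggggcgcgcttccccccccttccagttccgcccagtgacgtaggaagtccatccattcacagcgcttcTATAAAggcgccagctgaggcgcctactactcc

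The first comparison asks how Dex altered these genes in prelimbic cortex. With Dex, 27 of the 36 genes had a positive log2 fold change, with a median of 0.25 on the log2 scale, against 49.7% of all genes tested and a median of −0.0025. The median of the 36 was 0.12 without PL saline library 2 and 0.38 without PL saline library 3, the lowest and highest with 1 library left out, and 0.098 after a correction for GC content described below. The highest values belonged to Btg2 (0.75), Csrnp1 (0.73), Arl4d (0.71), Egr2 (0.62) and Fos (0.61). In edgeR's quasi-likelihood test none of the 36 passed an adjusted p of 0.05 (background: 0.02% of genes, all of them lower), so the differences given for Dex are values and not calls. At an unadjusted p under 0.05 there were 11 genes higher (background 6.97%) and 2 lower (6.93%). The PL Dex libraries lay wholly above the PL saline libraries for 10 genes (7.57% of all genes) and wholly below for 2, Atf3 and Rgs2 (6.82%). With the PL library sets as a term, a fit chosen after seeing the data, 28 of the 36 were positive with a median of 0.29, and again none passed (0.04% of genes were called; Btg2 0.83, adjusted p 0.0706). Beside these genes, 2 of 5 astrocyte markers and 2 of 5 microglia markers were higher in PL Dex at an unadjusted p under 0.05 and none was lower: Gfap (64.1 ± 12.9 CPM in PL Dex and 43.4 ± 7.81 CPM in PL saline), Aldh1l1 (38.3 ± 4.97 CPM in PL Dex and 32.0 ± 2.03 CPM in PL saline), Csf1r (81.6 ± 5.62 CPM in PL Dex and 64.7 ± 6.14 CPM in PL saline) and C1qa (20.4 ± 1.23 CPM in PL Dex and 14.1 ± 3.90 CPM in PL saline; SD, n = 3). Their adjusted p in edgeR lay between 0.197 and 0.356. In each of these lists of 5, 3 markers had a positive and 2 a negative log2 fold change. The medians were 0.025 for astrocyte and 0.15 for microglia markers. After the GC correction, 4 astrocyte and 2 microglia markers were positive, with medians of 0.14 and −0.0074. The part of other cell types in the values of the 36 genes was not tested. The calls depended on the method and on 1 library. DESeq2 called Btg2 (adjusted p 0.0132) and Fos (0.018), among 1.12% of genes. Without the filter on low counts, edgeR called Btg2 (0.00228), Fos (0.0278), Arl4d (0.0278), Csrnp1 (0.038) and Jun (0.0422), among 0.496% of genes. Without PL Dex library 3, 1484 genes were called (7.07% of genes), 5 of them on the list: Btg2, Fos, Fosb and Egr2 higher and Homer1 lower (adjusted p 0.0356, 0.0114, 0.027, 0.038 and 0.0152). The PL Dex libraries left in that fit, 1 and 2, are both of the set nearer to IL. Of PL saline, only library 1 is of that set. Dex and library set can therefore hardly be told apart in that fit.

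**Figure D1:**
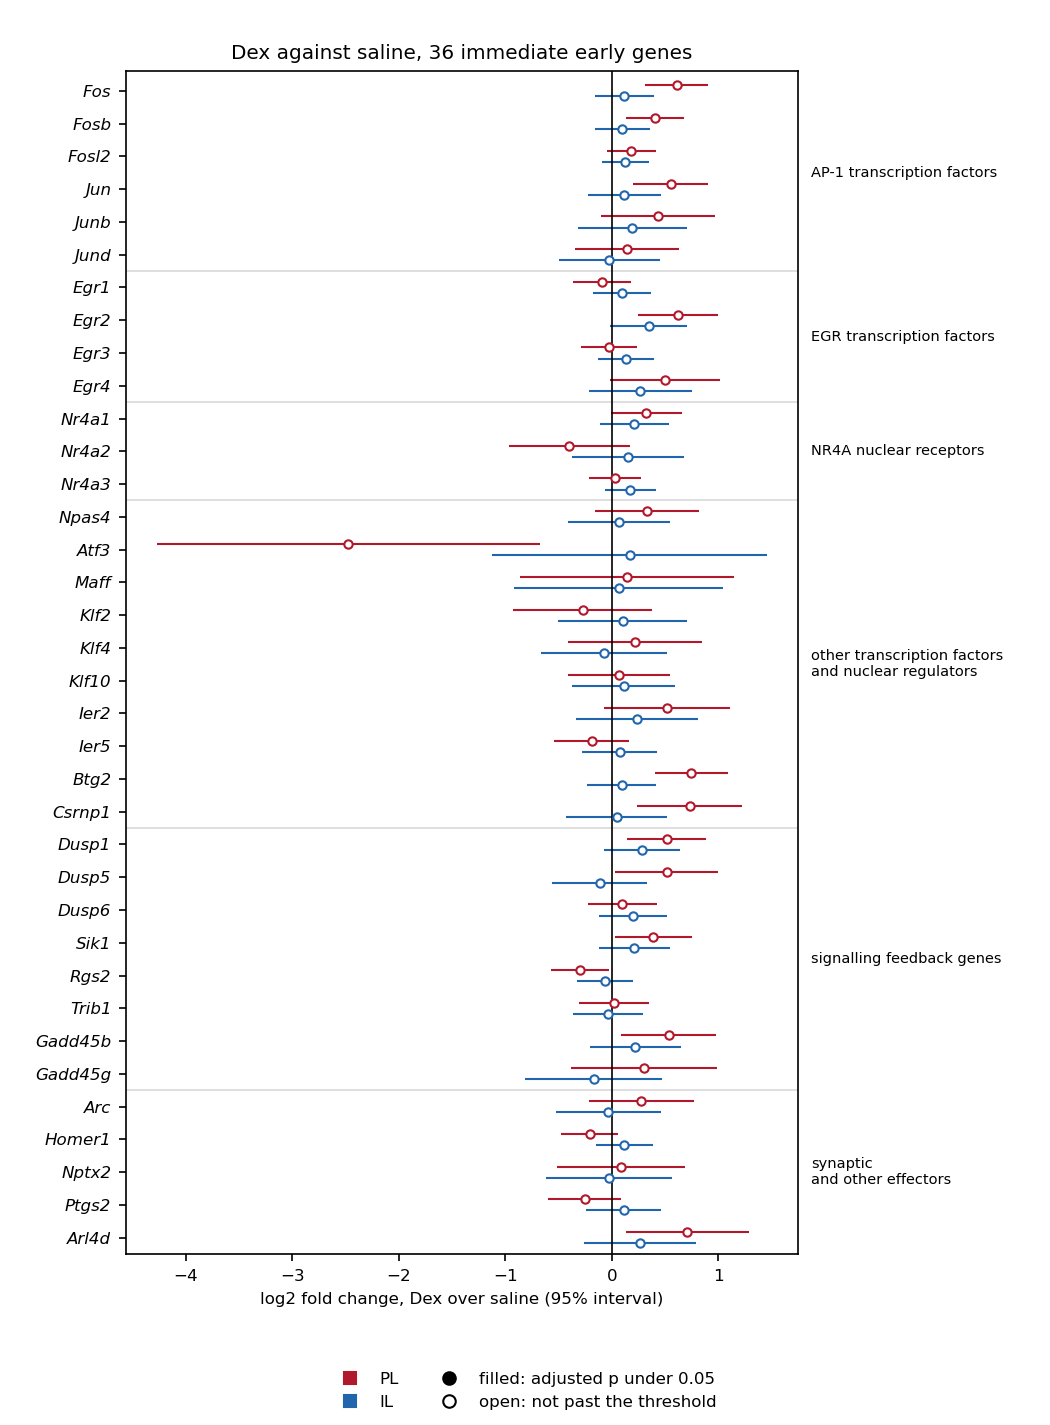
Log2 fold change of Dex over saline (horizontal axis, with 95% intervals) for the 36 genes, grouped by role from top to bottom, in PL (red) and IL (blue). All symbols are open because no gene passed the threshold, and 27 genes in PL and 28 in IL lie to the right of 0.

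Among the AP-1 factors, which pair as Fos-Jun dimers and bind AP-1 sites, all 6 had a positive log2 fold change in PL, from 0.14 for Jund to 0.61 for Fos; after the GC correction Jund was at −0.18 and the other 5 stayed positive. Fos (ENSMUSG00000021250, GRCm38 chr12:85473890-85477273), the prototype of the class, was at 42.3, 33.4 and 32.9 CPM in the 3 PL Dex libraries, against 24.6, 22.5 and 24.3 CPM in PL saline. The lowest PL Dex value was thus above the highest PL saline value, and the log2 fold change was 0.61 (SE 0.14, 95% CI 0.32 to 0.90, adjusted p 0.156). In IL, Fos was at 34.2, 32.6 and 37.2 CPM with Dex and at 27.5, 35.6 and 32.7 CPM with saline, overlapping groups with a log2 fold change of 0.12 (SE 0.135). The PL Dex level of Fos (36.2 ± 5.29 CPM, SD, n = 3) was close to that of both IL groups (34.6 ± 2.33 CPM with Dex and 31.9 ± 4.08 CPM with saline), and PL saline (23.8 ± 1.14 CPM) was the group that lay apart.

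Fosb (ENSMUSG00000003545, GRCm38 chr7:19302696-19310051), whose splice form ΔFosB accumulates with repeated stimulation, showed 46.3, 39.3 and 35.2 CPM in PL Dex, against 34.3, 28.1 and 29.0 CPM in PL saline. The groups did not overlap, and the log2 fold change was 0.41 (SE 0.131, 95% CI 0.13 to 0.68, adjusted p 0.222). In IL the values were 44.4, 51.9 and 52.6 CPM with Dex and 45.6, 48.3 and 45.3 CPM with saline, with 2 Dex libraries above every saline library and the first below them all. Jun, the main partner of Fos, stood at 45.7, 38.9 and 44.2 CPM in PL Dex and 25.8, 23.2 and 38.6 CPM in PL saline. Its PL groups were apart only just, since PL saline library 3 was near the Dex level, and the log2 fold change was 0.55 (SE 0.17, 95% CI 0.20 to 0.91, adjusted p 0.21). Its exons overlap the antisense gene Junos over 7.28% of their length, and counting ignored strand. In IL, Jun was at 28.9, 39.02 and 41.0 CPM with Dex and 30.7, 35.4 and 34.7 CPM with saline, and the groups overlapped. Fosl2, a Fos relative with slower kinetics, gave 87.1, 90.9 and 89.7 CPM in PL Dex, against 79.7, 70.5 and 85.5 CPM in PL saline, which were apart by a small margin. Fosl2 was at 132, 134 and 163 CPM in IL Dex and 125, 129 and 140.4 CPM in IL saline. Its log2 fold changes, 0.18 (SE 0.11) in PL and 0.12 (SE 0.106) in IL, were small, while both IL groups lay far above both PL groups. Junb and Jund had overlapping groups in both regions. They share 7.52% and 52.6% of their exon length with Prdx2 and Gm11175 on the other strand. The count of Jund above all may be raised or lowered by this overlap.

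The EGR factors, zinc finger proteins that bind GC-rich sites, did not share a direction in PL. Egr2 (ENSMUSG00000037868, GRCm38 chr10:67535475-67542188) was at 19.7, 17.4 and 16.4 CPM in PL Dex, against 8.65, 14.5 and 11.4 CPM in PL saline, and at 20.0, 16.5 and 19.4 CPM in IL Dex, against 15.7, 14.6 and 13.8 CPM in IL saline. Every Dex library was above every saline library of its region. The log2 fold changes were 0.62 (SE 0.181, 95% CI 0.24 to 1.00, adjusted p 0.197) in PL and 0.34 (SE 0.172, 95% CI −0.014 to 0.70, adjusted p 1) in IL, and in IL no other of the 36 genes had a smaller p. Egr1, the most abundant of the 36 genes per unit of transcript length, was at 331, 208 and 299.7 CPM in PL Dex and 309, 309.8 and 276 CPM in PL saline. PL Dex library 2 was the lowest of all 12 libraries and PL Dex library 1 the highest, and the log2 fold change was −0.093 (SE 0.131, 95% CI −0.37 to 0.18, adjusted p 0.774). In IL, Egr1 stood at 292, 235 and 258 CPM with Dex and 256, 233 and 245 CPM with saline, with overlapping groups (0.094 (SE 0.131)). Egr4 was at 42.9, 19.6 and 30.2 CPM in PL Dex and 24.3, 14.99 and 26.4 CPM in PL saline, where library 2 was the lowest in both groups. The IL values of Egr4 were 43.6, 40.4 and 48.9 CPM with Dex and 31.8, 37.8 and 40.9 CPM with saline, 2 of the Dex libraries lying above all saline libraries. Egr3, a partner of Egr1 in activity-driven transcription, had log2 fold changes of −0.024 (SE 0.127) in PL and 0.13 (SE 0.127) in IL.

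The NR4A genes encode orphan nuclear receptors that act in memory consolidation. Nr4a1 (ENSMUSG00000023034, GRCm38 chr15:101254269-101274795) stood at 84.9, 91.6 and 83.5 CPM in PL Dex, against 64.5, 59.5 and 83.3 CPM in PL saline. The PL Dex values were tight, and PL saline library 3 almost reached them, so that the groups were apart by less than 1 CPM (log2 fold change 0.33 (SE 0.159, 95% CI −0.0080 to 0.66, adjusted p 0.37)). In IL it was at 85.9, 109 and 130.4 CPM with Dex and 81.9, 85.0 and 115 CPM with saline, with overlap and a log2 fold change of 0.21 (SE 0.155). Nr4a2 gave 21.4, 21.8 and 20.2 CPM in PL Dex and 37.2, 26.0 and 20.8 CPM in PL saline. Its PL Dex libraries agreed closely while the PL saline libraries spread, and the log2 fold change was −0.40 (SE 0.265, 95% CI −0.97 to 0.17, adjusted p 0.51), negative in contrast to Nr4a1. In IL, Nr4a2 was at 28.3, 56.9 and 47.7 CPM with Dex and 28.9, 47.9 and 43.3 CPM with saline, with library 1 the lowest of both groups. Nr4a3 was at 79.7, 69.4 and 81.2 CPM in PL Dex and 81.7, 81.3 and 62.8 CPM in PL saline, overlapping groups (0.030 (SE 0.118)). In IL its Dex libraries, at 82.3, 86.1 and 98.7 CPM, were above its saline libraries, at 79.0, 77.1 and 81.2 CPM, with a log2 fold change of 0.17 (SE 0.116, 95% CI −0.068 to 0.42, adjusted p 1).

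**Figure D2:**
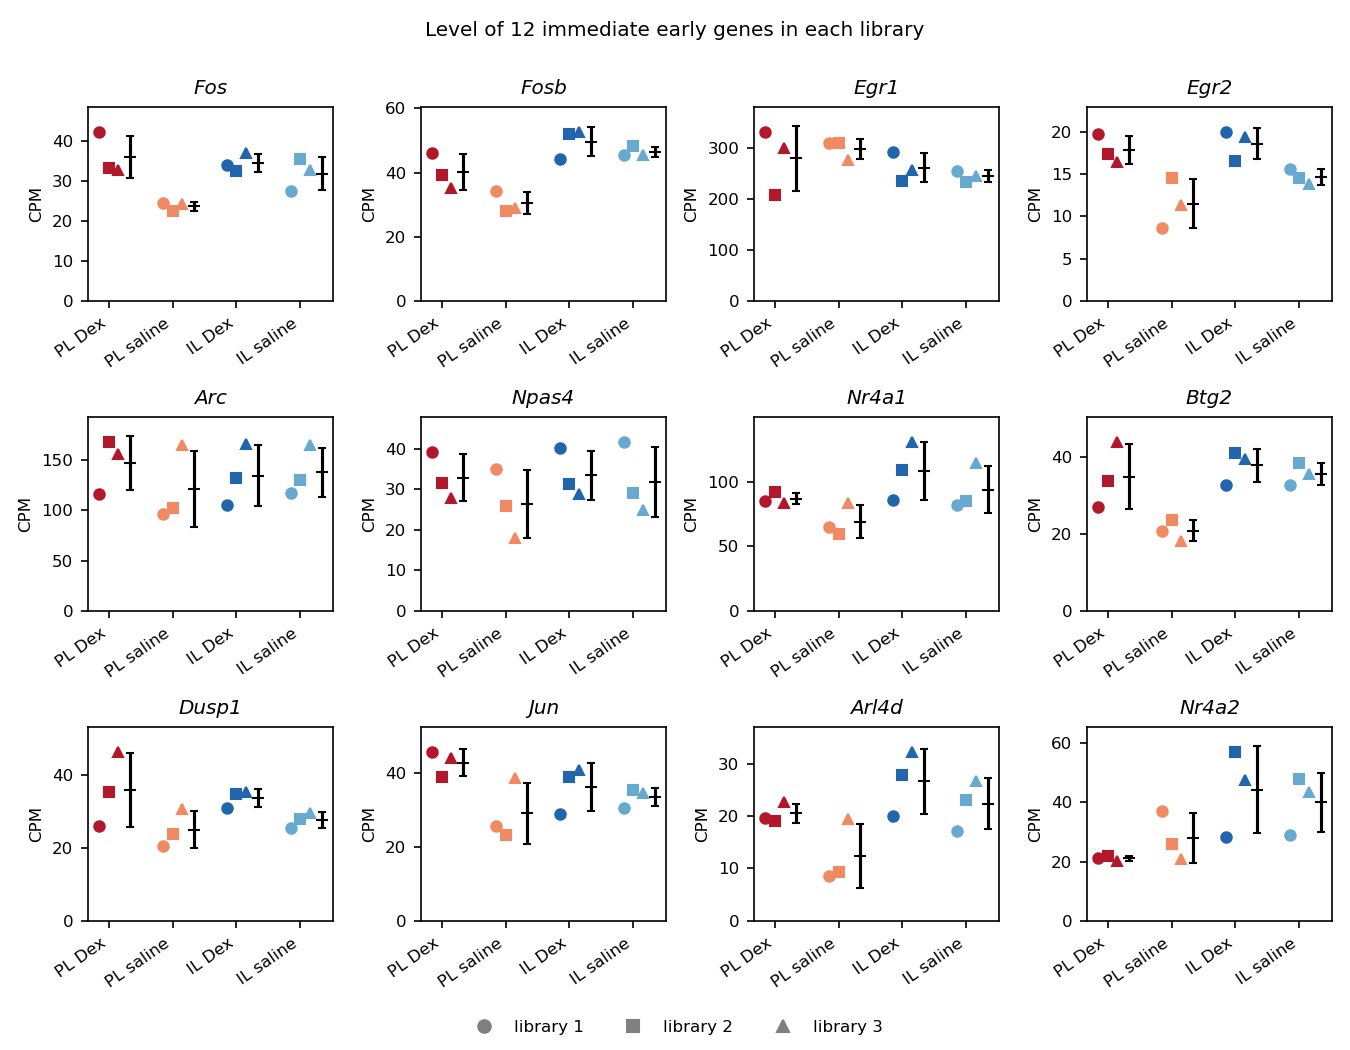
CPM of 12 of the genes in each library (circle, square and triangle for libraries 1, 2 and 3), with the mean and SD of each group of 3 as a black bar to its right; all vertical axes start at 0. Fos, Fosb, Egr2 and Btg2 were lowest in PL saline, while Nr4a2 was lowest in PL Dex and Egr1, Arc and Npas4 overlapped between all groups of a region.

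Of the other transcription factors and nuclear regulators, Btg2 had the smallest p of the 36 genes in PL. Btg2 (ENSMUSG00000020423, GRCm38 chr1:134075170-134079120) encodes an antiproliferative protein that recruits the CCR4-NOT deadenylase to messenger RNA. It was at 27.1, 33.7 and 43.8 CPM in PL Dex, against 20.7, 23.5 and 18.1 CPM in PL saline. All PL Dex libraries were above all PL saline libraries, with library 3 the highest with Dex and the lowest with saline, and the log2 fold change was 0.75 (SE 0.164, 95% CI 0.40 to 1.09, adjusted p 0.156). In IL, Btg2 was at 32.8, 41.0 and 39.6 CPM with Dex and 32.7, 38.3 and 35.5 CPM with saline, overlapping groups with a log2 fold change of 0.091 (SE 0.155). Csrnp1, a nuclear protein named for its cysteine and serine rich sequence, was at 21.1, 18.1 and 19.1 CPM in PL Dex and 9.72, 9.37 and 15.9 CPM in PL saline. The groups were apart, with PL saline library 3 closest to Dex, and the log2 fold change was 0.73 (SE 0.235, 95% CI 0.24 to 1.22, adjusted p 0.222); 6.45% of its exon length is shared with 1700019L13Rik on the other strand. In IL, Csrnp1 was at 14.8, 10.7 and 20.2 CPM with Dex and 13.3, 12.9 and 18.5 CPM with saline, and the groups overlapped.

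Npas4, a factor restricted to neurons and induced by calcium entry, was at 39.2, 31.6 and 27.8 CPM in PL Dex and 34.9, 25.9 and 18.1 CPM in PL saline. In IL it was at 40.3, 31.4 and 28.8 CPM with Dex and 41.6, 29.1 and 24.8 CPM with saline. In all 4 groups library 1 was the highest and library 3 the lowest, and the differences between libraries exceeded those between treatments (log2 fold change 0.33 (SE 0.232, 95% CI −0.16 to 0.82, adjusted p 0.53) in PL and 0.068 (SE 0.225) in IL). Atf3, a stress-induced factor of the CREB family, was at 0.272, 0.435 and 0 CPM in PL Dex (2, 3 and 0 counts), against 0.759, 0.468 and 2.78 CPM in PL saline (5, 4 and 23 counts). PL saline library 3 held most of the PL counts, and the log2 fold change of −2.48 (SE 0.864, adjusted p 0.245) was −1.32 without it (adjusted p 0.517). In IL, Atf3 was at 0.534, 2.40 and 1.01 CPM with Dex and 1.08, 0.969 and 1.43 CPM with saline, with overlapping groups. Ier5, which acts in the heat shock response, was at 63.1, 40.5 and 63.2 CPM in PL Dex and 58.8, 52.4 and 79.0 CPM in PL saline, and at 40.3, 38.7 and 43.2 CPM in IL Dex and 41.8, 33.1 and 41.5 CPM in IL saline, with overlap in both regions. Maff, Klf2, Klf4, Klf10 and Ier2 had log2 fold changes from −0.27 (Klf2) to 0.52 (Ier2) in PL and from −0.072 (Klf4) to 0.24 (Ier2) in IL. Of these 5 only Ier2 had PL groups that did not overlap, at 4.90, 5.08 and 6.78 CPM with Dex and 3.19, 4.45 and 3.98 CPM with saline.

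Several of the genes listed under signalling feedback encode products that damp the pathways which induced them. Dusp1 (ENSMUSG00000024190, GRCm38 chr17:26505590-26562128), a nuclear phosphatase of MAP kinases, was at 26.1, 35.3 and 46.2 CPM in PL Dex and 20.7, 23.8 and 30.6 CPM in PL saline, with library 3 the highest and library 1 the lowest of both groups. The groups overlapped, and the log2 fold change was 0.52 (SE 0.178, 95% CI 0.15 to 0.89, adjusted p 0.241). In IL it was at 30.8, 34.7 and 35.3 CPM with Dex, above all saline libraries at 25.5, 27.8 and 29.7 CPM (log2 fold change 0.28 (SE 0.173, 95% CI −0.078 to 0.64, adjusted p 1)). Dusp5, a phosphatase of ERK in the nucleus, showed 8.98, 12.0 and 10.6 CPM in PL Dex and 6.38, 6.56 and 9.06 CPM in PL saline. Only PL Dex library 1 lay within the range of PL saline (log2 fold change 0.52 (SE 0.232, 95% CI 0.031 to 1.00, adjusted p 0.332)); 22.1% of its exon length is shared with AC137853.2 on the other strand. In IL, Dusp5 stood at 7.30, 12.2 and 14.2 CPM with Dex and 11.9, 13.1 and 12.2 CPM with saline, where IL Dex library 1 was low. Dusp6, the cytoplasmic phosphatase of ERK, was at 67.3, 65.5 and 86.6 CPM in PL Dex and 70.6, 62.4 and 71.8 CPM in PL saline. In IL it was at 53.4, 47.7 and 71.9 CPM with Dex and 43.9, 46.8 and 60.7 CPM with saline. Its groups overlapped in both regions, with library 3 the highest of each.

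Sik1, a kinase that keeps the CREB coactivators of the CRTC family out of the nucleus, was at 24.4, 30.2 and 26.8 CPM in PL Dex and 25.5, 14.4 and 22.5 CPM in PL saline, where library 2 was low. In IL, Sik1 was at 41.3, 45.8 and 51.1 CPM with Dex and 35.9, 43.4 and 40.4 CPM with saline. The Dex and saline libraries overlapped in both regions, with log2 fold changes of 0.39 (SE 0.173, 95% CI 0.031 to 0.75, adjusted p 0.324) in PL and 0.21 (SE 0.159) in IL. Rgs2, which turns off Gq signalling, was at 36.2, 39.8 and 45.4 CPM in PL Dex, below PL saline at 50.3, 53.5 and 45.6 CPM, the nearest libraries differing by less than 1 CPM (log2 fold change −0.30 (SE 0.13, 95% CI −0.57 to −0.029, adjusted p 0.316)). The IL values of Rgs2 were 51.1, 56.6 and 60.9 CPM with Dex and 49.9, 64.4 and 61.9 CPM with saline, with overlap. Gadd45b, a stress sensor upstream of p38 and JNK, was at 10.2, 13.6 and 10.4 CPM in PL Dex, above PL saline at 6.68, 9.49 and 7.37 CPM (log2 fold change 0.53 (SE 0.216, 95% CI 0.083 to 0.98, adjusted p 0.297)). Gadd45g and Trib1 had overlapping groups in both regions.

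Among the effectors, Arc (ENSMUSG00000022602, GRCm38 chr15:74669083-74672570), which reaches dendrites as RNA and removes AMPA receptors from synapses, was at 117, 168 and 157 CPM in PL Dex and 96.7, 102 and 165 CPM in PL saline. In IL it stood at 105, 132 and 166 CPM with Dex and 118, 131 and 165 CPM with saline. Library 1 was the lowest of every group, the groups overlapped, and the log2 fold changes were 0.28 (SE 0.228, 95% CI −0.22 to 0.77, adjusted p 0.6) in PL and −0.033 (SE 0.225) in IL. Homer1, a scaffold of metabotropic glutamate receptors, was at 555, 533 and 802 CPM in PL Dex and 671, 765 and 747 CPM in PL saline. PL Dex library 3 was above every PL saline library and the other 2 were below them all, which gave a log2 fold change of −0.21 (SE 0.129, 95% CI −0.48 to 0.061, adjusted p 0.475). In IL, Homer1 was at 560.0, 510.4 and 596 CPM with Dex and 493, 474 and 570.4 CPM with saline. Arl4d (ENSMUSG00000034936, GRCm38 chr11:101665541-101667832), a small GTPase of the ARF family, was at 19.7, 19.2 and 22.6 CPM in PL Dex and 8.50, 9.37 and 19.4 CPM in PL saline. PL saline library 3 alone reached the Dex level, and the log2 fold change was 0.71 (SE 0.271, 95% CI 0.14 to 1.28, adjusted p 0.286), or 1.20 without that library (adjusted p 0.0575). The IL values of Arl4d were 20.0, 27.9 and 32.2 CPM with Dex and 17.2, 23.1 and 26.8 CPM with saline, again with library 3 the highest of both groups. Ptgs2, which encodes the prostaglandin synthase COX-2, was at 33.2, 32.7 and 40.9 CPM in PL Dex and 34.9, 44.5 and 47.8 CPM in PL saline, and at 28.7, 20.4 and 24.0 CPM in IL Dex and 17.7, 23.6 and 25.9 CPM in IL saline. Its Dex and saline libraries overlapped in both regions, as did those of Nptx2, a secreted protein that clusters AMPA receptors.

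The same question for infralimbic cortex gave smaller values as counted. With Dex, 28 of the 36 genes had a positive log2 fold change (51.8% of all genes), with a median of 0.11 against 0.0063 over all genes. The median was 0.053 without IL Dex library 3 and 0.20 without IL saline library 3, the lowest and highest with 1 library left out. After the GC correction it was 0.12 in IL and 0.098 in PL, so that the IL median was no longer the smaller. No gene of the table was called in IL by edgeR (0% of genes), none of the 36 reached an unadjusted p of 0.05 (background 1.06%), and DESeq2 also called none of the 36. The Dex libraries lay above the saline libraries for Egr2, Nr4a3 and Dusp1, which is 3 of 36 (background 3.8%), and for none were they below (3.98%). The PL and IL comparisons share no library, but the labels do not say whether PL and IL libraries of the same number came from the same mouse. The log2 fold change was positive in both regions for 20 genes, against 25.2% of all genes tested, and negative in both for 1, Rgs2, against 23.6%. Averaged over both regions, none of the 36 was called (0.005% of genes): the smallest adjusted p was 0.54, for Egr2 at a log2 fold change of 0.48 (SE 0.125), and Fos (0.36 (SE 0.0971)), Btg2 (0.42 (SE 0.113)) and Dusp1 (0.40 (SE 0.124)) came next. At an unadjusted p under 0.05 there were 12 genes higher (background 3.24%) and 1 lower (3.57%).

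The labels give each library a batch number that equals its sample number, so each Dex library was also set against the saline library of the same number and region, which makes 6 pairs, though not necessarily of 6 separate mice per treatment. In PL, same-numbered libraries were not clearly more alike than others, so the PL pairs may not be true pairs. Egr2, Egr4, Nr4a1, Fosl2, Btg2, Dusp1, Gadd45b and Arl4d were higher with Dex in all 6 pairs, which is 8 of 36 genes against 2.43% of all genes. None of the 36 was lower in all 6, against 2.42% of all genes. Dusp1 showed log2 differences between 0.25 and 0.59 in the 6 pairs. Btg2 ranged from 0.0017 in IL pair 1 to 1.26 in PL pair 3. Fos, Fosb and Jun were higher with Dex in 5 pairs, the exceptions being IL pair 2 for Fos and IL pair 1 for Fosb and Jun. With the number as a block in the model none of the 36 genes passed the threshold in either region.

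Whether the effect of Dex differed between the regions was tested as an interaction. No gene of the table was called (0% of genes), with 4 of the 36 at an unadjusted p under 0.05 (background 6.73%). The effect was more positive in PL than in IL by 0.65 (SE 0.226, 95% CI 0.18 to 1.13, adjusted p 0.716) for Btg2, by 0.49 (SE 0.194, 95% CI 0.085 to 0.89, adjusted p 0.716) for Fos and by 0.68 (SE 0.326, 95% CI 0.0033 to 1.37, adjusted p 0.716) for Csrnp1 on the log2 scale, and it was more negative for Atf3 at −2.65 (SE 1.08). The median over the 36 genes was 0.17, against 0.00024 over all genes. It was −0.012 after the GC correction, and 0.017 without PL saline library 2 and 0.27 without IL Dex library 3, the lowest and highest with 1 library left out.

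The GC content of a gene's transcripts moved with part of the PL result. The longest transcripts of the 36 genes had a median GC content of 55.3%, against 48.4% for all genes tested. Relative to the mean of all libraries, the log2 level per 10% more GC had a slope of 0.12, 0.098 and −0.066 in PL Dex libraries 1, 2 and 3, against −0.25, −0.30 and −0.072 in the PL saline libraries. In IL the slope lay between −0.0076 and 0.19. With each library's trend on GC removed, 24 of the 36 genes were positive in PL, 23 of them positive before as well, and the median log2 fold change of the 36 was 0.098. Btg2 (0.72), Egr2 (0.54), Arl4d (0.53), Csrnp1 (0.52) and Fos (0.51) kept values above 0.5, with adjusted p of 0.404 to 0.826. Fosb was at 0.19, Nr4a1 at 0.10 and Fosl2 at 0.052, each less than 0.5 times its value before. Homer1, with the lowest GC content of the list (36.9%), turned from negative to 0.11, and Jund, Maff, Trib1 and Nptx2 turned from positive to values between −0.18 and −0.063. In IL the correction changed no sign: the same 28 genes were positive, and the median was 0.12. After it, 7 genes were higher with Dex in all 6 same-numbered pairs (2.47% of all genes): Egr2, Nr4a1, Btg2, Dusp1, Gadd45b and Arl4d as before, and Fosb in place of Fosl2 and Egr4.

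**Figure D3:**
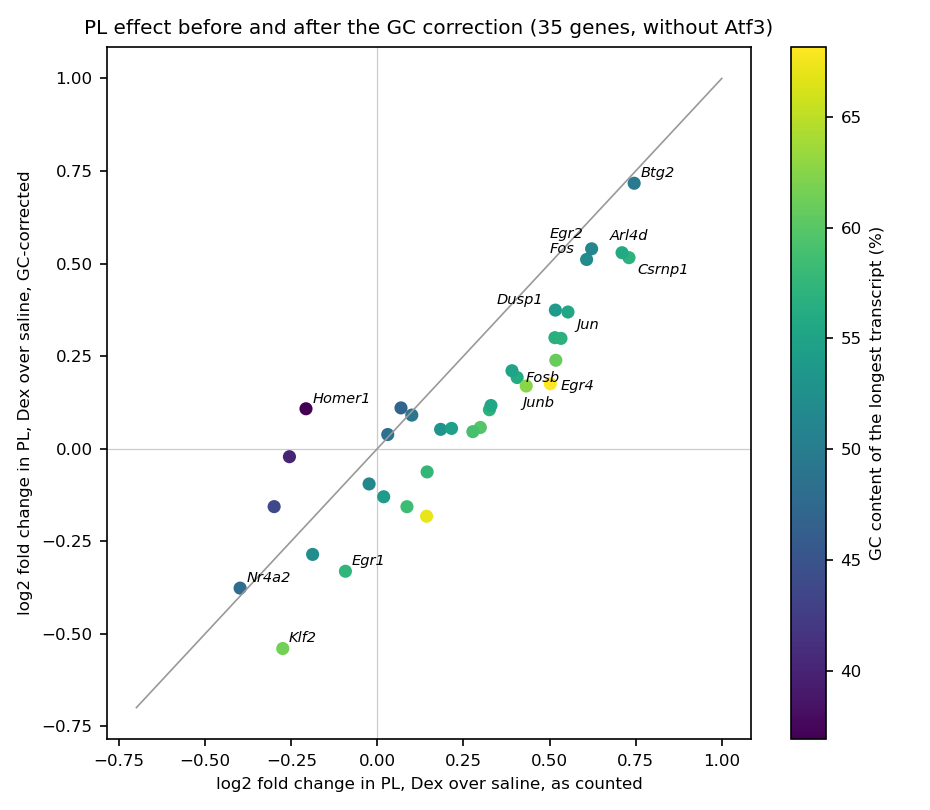
Log2 fold change of Dex over saline in PL as counted (horizontal axis) and after the GC correction (vertical axis) for 35 genes, coloured by the GC content of the longest transcript; Atf3 is left out for its range. Points on the grey diagonal did not move: Btg2 lies close to it, most GC-rich genes lie below it, and Homer1 lies above it.

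Library 3 stood high across these genes in each group. Library 3 held the highest value of its group for 17 of the 36 genes in PL Dex, 23 in PL saline, 25 in IL Dex and 21 in IL saline, where the same share over all genes tested was 36.3%, 33.0%, 35.2% and 34.4% in that order of groups. After the GC correction the numbers were 25, 22, 19 and 21. Library 1 held the lowest value for 21 genes in IL Dex and 24 in IL saline, 58.3% and 66.7% of the list, against 34.4% and 35.5% of all genes. In PL the lowest values were spread more evenly between libraries 1 and 2. Library 1 was lowest for 13 genes in PL Dex and 14 in PL saline (36.1% and 38.9%, against 26.5% and 34.2% of all genes). Library 2 was lowest for 14 and 16 (38.9% and 44.4%, against 35.8% and 29.0% of all genes). The median of the 36 genes in library 3 lay above its group mean by 0.080 in PL Dex, 0.22 in PL saline, 0.15 in IL Dex and 0.15 in IL saline on the log2 scale, while the median over all genes was within 0.01 of it in each of the 4. Npas4 went against this order with library 1 the highest in all 4 groups. What the number stands for beyond a batch is not given in the labels, and its part in these levels was not tested.

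**Figure D4:**
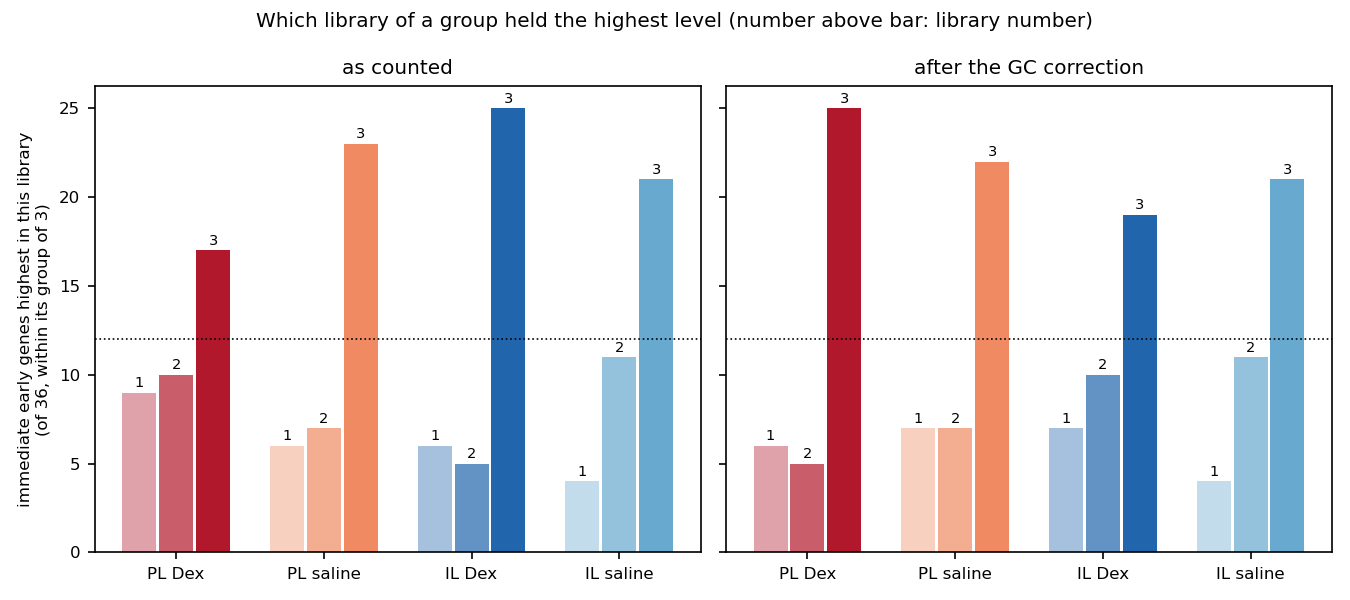
Number of the 36 genes whose highest value within a group of 3 fell in library 1, 2 or 3 (library number above each bar), for the 4 groups, as counted (left) and after the GC correction (right). The dotted line marks 12 genes, an even split, and library 3 stands above it in every group in both panels.

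The region comparisons ask how these genes differ between prelimbic and infralimbic cortex. In Dex mice, 4 of the 36 genes passed the threshold, which is 11.1% (background 7.34%): Fosl2, Sik1, Nr4a2 and Rgs2, all lower in PL (background 3.54%). In saline mice 12 passed, which is 33.3% (background 18.7%). Of these, Ptgs2, Ier5, Homer1 and Egr3 were higher in PL (background 9.97%), and Fosl2, Sik1, Btg2, Fosb, Dusp5, Fos, Arl4d and Egr4 were lower (8.7%). The 2 comparisons hold different libraries of each region. Between PL and IL the summed striatal markers also differed, being lower in every PL library than in every IL library, and 3 of the 5 striatal markers were called lower in PL in Dex mice and 4 in saline mice. The summed neuron markers were higher in every PL library than in every IL library, with 2 of 6 called higher and 2 lower in Dex mice, and 2 higher and 1 lower in saline mice. The part of tissue composition in the values below was not tested.

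Fosl2 had the smallest p in both mice groups, at a log2 fold change of PL over IL of −0.68 (SE 0.109, 95% CI −0.91 to −0.46, adjusted p 0.000539) in Dex mice and −0.74 (SE 0.108, 95% CI −0.97 to −0.52, adjusted p 0.000147) in saline mice. Every PL library, from 70.5 to 90.9 CPM, was below every IL library, from 125 to 163 CPM. Sik1 was also lower in PL, at −0.77 (SE 0.166, 95% CI −1.12 to −0.42, adjusted p 0.00582) in Dex mice and −0.95 (SE 0.166, 95% CI −1.30 to −0.60, adjusted p 0.000675) in saline mice, again with every PL library (14.4 to 30.2 CPM) below every IL library (35.9 to 51.1 CPM). Both genes kept their calls without any 1 of the 12 libraries, in DESeq2, with the GC correction and with the PL library sets as a term. Nr4a2 had the largest difference of the called genes in Dex mice at −1.08 (SE 0.261, 95% CI −1.64 to −0.52, adjusted p 0.0214), with PL Dex at 21.4, 21.8 and 20.2 CPM and IL Dex at 28.3, 56.9 and 47.7 CPM; in saline mice it was at −0.53 (SE 0.25, 95% CI −1.07 to 0.0081, adjusted p 0.159). Rgs2 was at −0.48 (SE 0.13, 95% CI −0.75 to −0.21, adjusted p 0.0269) in Dex mice and −0.24 (SE 0.126) in saline mice. The call of Nr4a2 was lost without PL Dex library 1, 2 or 3 or IL Dex library 2 or 3 (adjusted p 0.0737, 0.0785, 0.138, 0.0874 and 0.0736). That of Rgs2 was lost without PL Dex library 1 or 2 or IL Dex library 2 or 3 (0.131, 0.0558, 0.0922 and 0.114).

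Btg2 had a log2 fold change of PL over IL of −0.12 (SE 0.159) in Dex mice and −0.77 (SE 0.161, 95% CI −1.11 to −0.44, adjusted p 0.00258) in saline mice. Fosb was at −0.30 (SE 0.129) in Dex mice and −0.61 (SE 0.128, 95% CI −0.88 to −0.34, adjusted p 0.00287) in saline mice. Fos was at 0.061 (SE 0.137) in Dex mice and −0.43 (SE 0.137, 95% CI −0.71 to −0.14, adjusted p 0.0343) in saline mice. These 3 genes were called in saline mice and not in Dex mice, but the change in the region difference is the interaction given above, which did not pass. Ptgs2 was at 0.55 (SE 0.169, 95% CI 0.20 to 0.91, adjusted p 0.0517) in Dex mice and, higher in PL, at 0.92 (SE 0.163, 95% CI 0.58 to 1.26, adjusted p 0.000767) in saline mice. Its lowest PL library, at 32.7 CPM, was above its highest IL library, at 28.7 CPM. Ier5 was higher by 0.71 (SE 0.167, 95% CI 0.36 to 1.06, adjusted p 0.00655), Homer1 by 0.51 (SE 0.129, 95% CI 0.24 to 0.77, adjusted p 0.0103) and Egr3 by 0.43 (SE 0.126, 95% CI 0.17 to 0.69, adjusted p 0.0221) in saline mice. Dusp5 was at −0.75 (SE 0.222, 95% CI −1.21 to −0.29, adjusted p 0.0231), Arl4d at −0.84 (SE 0.262, 95% CI −1.40 to −0.29, adjusted p 0.0349) and Egr4 at −0.76 (SE 0.236, 95% CI −1.26 to −0.25, adjusted p 0.0367). Atf3, at −2.44 (SE 0.872) in Dex mice, did not pass. All 6 AP-1 genes had a negative value in saline mice, from −0.74 to −0.20, and all 3 NR4A genes in both kinds of mice; under the GC correction Jun (0.026) and Jund (0.26) turned positive in saline mice and the NR4A genes kept their sign.

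Of the calls in saline mice, those of Fosl2, Sik1, Ptgs2, Btg2, Fosb and Ier5 held without any 1 library. Homer1 lost its call without PL saline library 2 (0.0518) or IL saline library 2 (0.0572). Egr3 lost it without PL saline library 3 (0.119) or IL saline library 1 (0.0728) or 2 (0.0874). Dusp5 and Fos lost it without PL saline library 1 or 2 or IL saline library 2 or 3 (adjusted p 0.056 to 0.109 for Dusp5 and 0.0592 to 0.164 for Fos), and Fos also without PL saline library 3 (0.0655). Egr4 and Arl4d lost it without the same 4 libraries (0.0543 to 0.15 for Egr4 and 0.0937 to 0.16 for Arl4d), and without PL Dex library 3 (0.0737 and 0.0569), Arl4d also without PL Dex library 2 (0.0588). With the PL library sets as a term, 5 were called in saline mice (background 4.6%): Fosl2, Btg2, Sik1, Ptgs2 and Arl4d. Fosb (adjusted p 0.0879) and Ier5 (0.121) were among the 7 lost, which reached up to 0.314. In Dex mice the same fit called Fosl2, Sik1 and Rgs2 (background 5.88%), with Nr4a2 at 0.059. After the GC correction 10 genes passed in saline mice (background 13.6%). Fosl2, Sik1, Btg2, Fosb, Ptgs2, Ier5 and Egr3 were among them, Egr1 (0.58), Trib1 (0.56) and Rgs2 (−0.39) were added, and Fos, Egr4, Dusp5, Homer1 and Arl4d were lost (adjusted p 0.105 to 0.419). With the replicate block, the saline comparison added Dusp6 (adjusted p 0.00897), Junb (0.0143), Klf10 (0.0165), Nr4a1 (0.0177) and Trib1 (0.0378) for 17 calls (background 20.9%). In Dex mice the block added Ptgs2 (0.0384), Ier5 (0.0473), Klf10 (0.0316) and Trib1 (0.0424), all higher in PL, for 8 calls (background 8.63%). Same-numbered PL and IL libraries were not clearly more alike than others, so the block may not mark true pairs across regions.

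**Figure D5:**
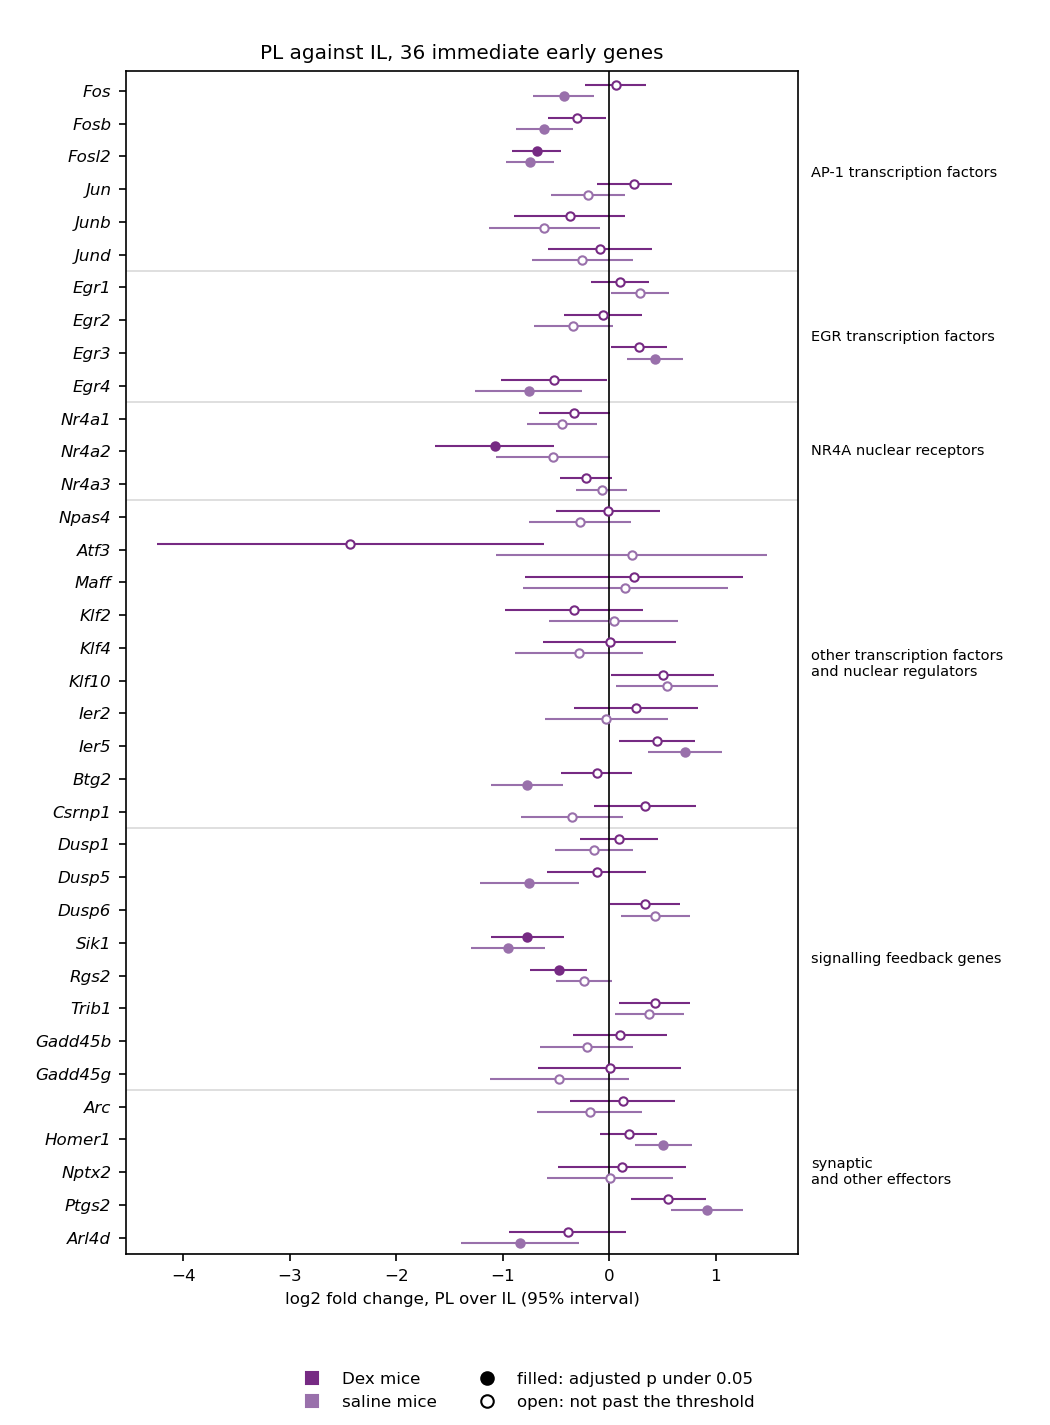
Log2 fold change of PL over IL (horizontal axis, with 95% intervals) for the 36 genes by role, in Dex mice (dark) and saline mice (light); filled symbols passed an adjusted p of 0.05. Fosl2 and Sik1 are filled and left of 0 in both, and 12 symbols are filled in saline mice, against 4 in Dex mice.

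Other genes of the activity response were read from lists. Of 29 tested genes that respond as rapidly but are not among the 36, 0 were called for Dex in either region. Log2 fold changes were positive for 19 in PL (median 0.14) and 17 in IL (median 0.051), against 49.7% and 51.8% of all genes. After the GC correction, 17 were positive in PL (median 0.046) and 18 in IL (median 0.054). The smallest p in PL belonged to the clock gene Per1, at 104 ± 20.9 CPM in PL Dex and 77.9 ± 12.8 CPM in PL saline (SD, n = 3), with a log2 fold change of 0.42 (SE 0.146, adjusted p 0.245), and to Cdkn1a, the cell cycle inhibitor p21, at 0.48 (SE 0.202). Between regions, 2 were higher and 4 lower in PL in Dex mice, and 4 higher and 5 lower in saline mice; over all genes, 3.8% were higher and 3.54% lower in Dex mice, and 9.97% and 8.7% in saline mice. The transcription factors Bhlhe40 and Klf6 were higher in PL in both, Bhlhe40 by 0.60 in Dex mice and 0.75 in saline mice (adjusted p 0.00255 and 0.000224). The small G protein Rasd1 was lower, at −1.01 in Dex mice and −1.47 in saline mice (adjusted p 0.00708 and 0.000202), and the phosphatase Dusp4 and the kinase Pim1 were lower in both as well.

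The late-response list holds genes that the first factors switch on, and 12 were tested. None was called for Dex; Plat, which encodes tissue plasminogen activator, was at 39.01 ± 6.96 CPM in PL Dex and 26.8 ± 0.883 CPM in PL saline (log2 fold change 0.54, SE 0.134, adjusted p 0.174), and Inhba, a subunit of activin, was at 25.3 ± 3.35 CPM in PL Dex and 34.4 ± 3.94 CPM in PL saline (−0.44, SE 0.154). In the region comparisons, 4 of the 12 were higher and 2 lower in PL in Dex mice (3.8% and 3.54% of all genes). In saline mice 5 were higher and 1 lower (9.97% and 8.7% of all genes), and 1 of 12 is near its share. Nrn1, Pcsk1, Nptx1 and Syt4 were higher in both; Nrn1, a protein that promotes neurite growth, differed by 1.03 in Dex mice and 1.00 in saline mice (adjusted p 0.00102 and 0.000606). Scg2, a secretogranin, was lower in PL in Dex mice, at −0.84 (adjusted p 0.0029).

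Upstream of the 36 genes, 16 transcription factors and coactivators, 13 kinases and phosphatases and 9 partners or corepressors were tested, and 0 were called for Dex in either region. Creb1, the gene of CREB itself, was at 103 ± 19.4 CPM in PL Dex and 133 ± 3.57 CPM in PL saline (−0.36, SE 0.114, adjusted p 0.214), and its coactivator gene Crtc1 at 173 ± 18.4 CPM in PL Dex and 139.6 ± 18.5 CPM in PL saline (0.31, SE 0.11). Of the partners, Nab2, a corepressor of EGR proteins, was at 0.49 (SE 0.228) in PL and −0.21 (SE 0.216) in IL. Between regions, 1 of the factors was higher and 1 lower in PL in Dex mice, and 2 higher and 4 lower in saline mice. Of the kinases, 2 were higher and 1 lower in Dex mice, and 3 higher and 3 lower in saline mice, to be read against the shares of all genes given above. Mef2c, a factor of excitatory neurons that binds activity-regulated enhancers, was higher in PL by 0.96 in Dex mice and 1.21 in saline mice (adjusted p 7.54e-05 and 4.41e-06). Crtc1, Crtc2 and Crtc3, the coactivators that Sik1 inhibits, were lower in PL in saline mice, at −0.41, −0.48 and −0.46 (adjusted p 0.0131, 0.0219 and 0.0478). They were not called in Dex mice, where the factor called lower was Elk3. In saline mice 6 of the 16 factors were positive as counted (median −0.035) and 10 after the GC correction (median 0.069). Values of the Crtc genes after that correction are not given.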

How the data were processed

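Read counts came from 12 polyA RNA-seq libraries, grouped by region and treatment as in their titles. The authors deposited the counts unnormalized as whole numbers. Per the file headers, featureCounts 2.0.1 counted read pairs on exons by gene identifier, with no use of strand, against the Ensembl release 98 annotation of GRCm38. The submitters' processing notes also list bcl2fastq, Trim Galore, HISAT2 and SAMtools 1.8, with mm39 as the build; 54948 of the 55240 gene identifiers shared with GENCODE M21 had the same GRCm38 coordinates in both, so GRCm38 is given here. A further 12 count columns matched no sample and were not used. Reads from overlapping genes on opposite strands could not be separated.

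The counts were fitted with edgeR 4.0.16 in R 4.3.3, using filterByExpr by group (20015 genes kept), TMM factors of 0.9352 to 1.053, and a robust quasi-likelihood model with 1 mean per group over all 12 libraries (8 residual degrees of freedom, common biological coefficient of variation 0.143). P-values are two-sided, adjusted by Benjamini-Hochberg over all genes tested, with a threshold of 0.05. CPM use TMM-scaled library sizes, and TPM divide counts by exon length. The fit was tested on simulated counts, whose spread followed the trend over genes and not each gene's own. For Dex in PL it called 33.9% of the genes changed 1.5-fold and 63.8% of those changed 2-fold. For the interaction it called 14.3% and 39.1%. Differences of this size can therefore miss the threshold. The GC correction removed, per library, a lowess trend (span 0.3) of log2 CPM deviations (prior count 2) on the GC content of the longest transcript. The 36 genes, the lists and the naming rule were chosen with earlier results of these data known. The rule names the 8 genes with the smallest p for each comparison of Dex, 6 for each region comparison, and Fos, Fosb, Egr1, Arc, Npas4 and Nr4a1; further members are described by role, and from the other lists it takes called genes or else the 2 smallest p.

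The batch number in the labels equals the sample number and was used to pair the libraries. Same-numbered Dex and saline libraries deviated together from their group means in IL (correlations over genes of 0.284 to 0.337), and less in PL (0.0086 to 0.108). Libraries of different number were at −0.20 to −0.11 in IL and −0.13 to 0.071 in PL. The ranges thus overlapped in PL, where the pairing by number is not clear. Between PL and IL, same-numbered libraries were at −0.093 to 0.038 in Dex mice and 0.027 to 0.19 in saline mice. Those of different number were at −0.071 to 0.099 and −0.12 to 0.055. These ranges overlapped as well, so pairing by number across regions is not clear either. The alternatives were the replicate block, DESeq2 1.42.0 and its kind of size factors, no filter, the compared groups only, the GC correction, each library left out and, added after seeing the data, the PL library sets as a term.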

Additional observations from a re-analysis of the deposited data

How the results depend on the processing

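For the 61 single-gene results at an unadjusted p under 0.05, 0 of 468 values reversed with a library left out (424 kept their side of the threshold, 31 lost a call and 13 gained one), and 0 of 469 under the other alternatives (408 kept it, 19 lost and 42 gained a call). Over all 216 single-gene results, small differences included, the sign changed in 135 of 1728 values with a library left out and in 74 of 1654 under the other alternatives. Counts of calls moved more, and the cause was not tested. Ranges with a library left out refer to the libraries of the groups compared; through the shared spread the other libraries matter too, and over all 12 the region comparison called 6 to 15 of the 36 in saline mice and 2 to 5 in Dex mice. For Dex in PL, 4 genes were called, against 0 with other size factors or the compared groups only, 1 with the GC correction, 2 with replicate block and GC correction, 8 with the PL library sets as a term, 140 in DESeq2 (2 of the 36) and 193 without the filter (5 of the 36). With a library left out the count was 0 to 1484 (0 to 5 of the 36), the highest without PL Dex library 3, followed by 8 without PL saline library 3. The median log2 fold change of the 36 in PL was 0.098 with the GC correction, 0.092 with block and correction and 0.12 to 0.38 with a library left out, lowest without PL saline library 2 and highest without PL saline library 3. In IL, 3 genes were called without the filter and 0 with any library left out, and the median lay at 0.053 to 0.20. Over both regions, 31 were called without the filter, 4 in DESeq2, 0 with the GC correction, 2 with block and correction, 6 with the PL sets and 0 to 11 with a library left out (11 without PL Dex library 3), with medians of 0.094 to 0.21. For the interaction, 4 genes were called without the filter and 0 to 144 with a library left out (144 without PL Dex library 3); the median of the 36 was −0.012 with the GC correction, −0.010 with block and correction and 0.017 to 0.27 with a library left out. PL against IL in Dex mice called 8 of the 36 with the replicate block (8.63% of genes). With block and correction it called 8 as well (2385 genes of the table). With a library left out it called 2 to 5 (783 to 1728 genes, lowest without IL Dex library 2), with medians of −0.042 to 0.042. Without the filter it called 9. The share over all genes is not given for that fit, so the 9 cannot be weighed against it. In saline mice it called 5 of the 36 with the PL sets (920 genes) and 6 to 12 with a library left out (1842 to 3190 genes), 6 being without IL saline library 2 and 7 without PL saline library 2; the median was −0.0045 with the GC correction, −0.014 with block and correction and −0.39 to −0.16 with a library left out. The replicate block moved no other call than those named beside the region comparisons. Fits on the compared groups only were not made over both regions or for the interaction. Where a group was left with 2 libraries, the spread was shared with the other groups. Group means on raw library totals moved by less than 1 SD in 141 of 144 cases. The low counts of Atf3 and Maff limit what can be said of them.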
